A study of Mus musculus with 8 samples.

Results

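The genes described here are 7 enzymes of cholesterol synthesis, Hmgcs1, Idi1, Fdps, Fdft1, Sqle, Lss and Cyp51, out of 32285 genes in the RNA matrix. They were chosen by name, each has a row in that matrix, and each has at least 1 accessible peak within 2 kb of the gene. All are synthesis enzymes, so genes of cholesterol uptake are given below as a separate list. Cells make cholesterol from acetyl-CoA: mevalonate is built first, then isoprenoid units, then squalene, which is closed into the first sterol and trimmed to cholesterol. When sterols in the endoplasmic reticulum are low, SCAP carries the factor SREBP2 to the Golgi for cleavage, and its active part switches on most genes of the route and of lipoprotein uptake; SREBP1c acts more on fatty acid genes. Alveolar type II (ATII) cells make surfactant, which holds phospholipid and cholesterol, while the flat type I (ATI) cells that arise from them carry out gas exchange.

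Alveolarspheres, spheres grown from mouse ATII cells without serum or feeder cells, were seeded from young and from old mice. On day 9 they were infected with AAV9 carrying Cre alone or Sox9 together with Cre (groups Cre and Sox9-Cre), then kept for 4 days in medium that drives ATI differentiation, and nuclei of live sorted tdTomato-positive cells were used for RNA and accessibility (ATAC) of the same nuclei. The labels give 2 samples in each of 4 groups, Sox9-Cre RNA, Sox9-Cre ATAC, Cre RNA and Cre ATAC, and all groups share Cre, the differentiation medium and the sort. The sources used here do not give the mouse strain, the promoter driving the transgene or the age behind each sample. The matrices pool all nuclei under 4 barcode prefixes, called libraries A to D, and the labels tie none of them to a group: nuclei are 1 sample here, no difference has a test, and values are given library by library. After filtering, 7184 nuclei were kept (1260, 760, 3236 and 1928 in libraries A to D, with library medians of 9802 to 11728 UMIs, unique RNA molecules, per nucleus), and 20 barcode sequences occurred in more than 1 library.

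Nuclei were grouped without the genes described here and without Sox9, and clusters were named from marker genes. The labels call the cells type 2 pneumocytes, and 22.5% of the nuclei took the ATII-like name. There were 1619 ATII-like nuclei (clusters 0 and 9, with 14 and 16 of 17 ATII markers supporting the name), 1981 ATI-like nuclei (clusters 1 and 3), 1559 transitional-like nuclei (clusters 2 and 5; transitional cells lie between ATII and ATI and carry keratin 8) and 170 airway secretory-like nuclei (cluster 10). The airway nuclei came from libraries C (74) and D (96) alone, and 11 of 12 ciliated cell markers were supported in that cluster beside 16 of 17 secretory ones. Sox9-high nuclei, with at least 5 Sox9 UMIs, numbered 312, of which 197 were in library C, 114 in D, 1 in A and 0 in B. The other clusters kept no name, and none took an immune, endothelial or mesenchymal one.

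Promoter sequence from the RefSeq promoter table (build GRCm38.p6) matched 4 of the 7 genes (all but Sqle, Fdps and Fdft1), and the 250 bases before each start site are printed because each stretch lies inside the accessible peak at that gene's start. Capitals mark the box CCAAT, bound by NF-Y, which reads as ATTGG when it lies on the other strand, and TCACNCCAC, a form of the sterol regulatory element (SRE) bound by SREBPs. The Hmgcs1 stretch is chr13:119690101-119690350 (plus strand), the Idi1 stretch chr13:8885356-8885605 (plus), the Lss stretch chr10:76531355-76531604 (plus) and the Cyp51 stretch chr5:4104698-4104947 (minus), each read 5′ to 3′ toward the gene. The Lss start site used here lies inside the gene span given below, so the end of its stretch does too.
Hmgcs1: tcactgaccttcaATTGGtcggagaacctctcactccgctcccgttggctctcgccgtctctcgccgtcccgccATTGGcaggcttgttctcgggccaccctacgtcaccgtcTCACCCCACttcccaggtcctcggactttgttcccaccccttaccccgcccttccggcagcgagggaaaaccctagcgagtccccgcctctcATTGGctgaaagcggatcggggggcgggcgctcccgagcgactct
Idi1: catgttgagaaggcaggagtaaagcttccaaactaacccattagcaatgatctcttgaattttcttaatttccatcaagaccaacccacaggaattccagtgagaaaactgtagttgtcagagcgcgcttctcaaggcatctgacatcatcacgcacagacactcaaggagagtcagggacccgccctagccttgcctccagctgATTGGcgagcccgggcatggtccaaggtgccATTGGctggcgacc
Lss: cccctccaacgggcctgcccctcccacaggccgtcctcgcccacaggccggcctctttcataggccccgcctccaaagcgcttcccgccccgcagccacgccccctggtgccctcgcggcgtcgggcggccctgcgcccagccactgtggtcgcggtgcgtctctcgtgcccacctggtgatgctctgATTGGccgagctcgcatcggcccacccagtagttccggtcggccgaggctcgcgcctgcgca
Cyp51: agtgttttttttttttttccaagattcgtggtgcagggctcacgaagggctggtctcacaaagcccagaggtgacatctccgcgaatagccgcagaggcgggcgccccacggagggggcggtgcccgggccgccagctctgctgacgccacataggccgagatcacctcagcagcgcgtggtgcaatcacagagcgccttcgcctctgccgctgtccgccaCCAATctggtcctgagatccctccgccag
The Hmgcs1 stretch held 1 SRE match, TCACCCCAC, from -137 to -129 relative to the start site, and 3 CCAAT boxes. Idi1 held 2 CCAAT boxes, from -45 to -41 and from -14 to -10, and Lss and Cyp51 held 1 each. Both strands of 32851 mouse promoter stretches of the same length were searched: 1.05% held the SRE form, 2.58% held CACCCCAC, which lies within the Hmgcs1 match, and 33.8% held CCAAT, with at least 2 copies in 10.1%. These are letter matches, and where a motif has no match only its absence from these 250 bases is shown. Other forms of the SRE were not searched, so a stretch without a match here could still hold one.

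The 7 genes together were most abundant in ATII-like nuclei, intermediate in transitional-like nuclei, lower in ATI-like nuclei and, among these 4 named classes, lowest in the airway cluster. Their summed level was 8.04, 9.26, 8.38 and 10.5 UMIs per 10000 UMIs in ATII-like nuclei of libraries A to D, 6.82, 5.95, 6.41 and 6.63 in transitional-like nuclei and 4.7, 4.91, 5.16 and 5.27 in ATI-like nuclei, and the 3 ranges do not overlap. In the airway cluster it was 3.39 in library C and 2.14 in library D, below every value of the other 3 named classes (an unnamed cluster, described in the closing section, was lower still). Over all libraries the sums were 9.0 (95% interval 8.87 to 9.12) in ATII-like, 6.49 (95% interval 6.38 to 6.6) in transitional-like, 5.06 (95% interval 4.97 to 5.15) in ATI-like and 2.63 (95% interval 2.44 to 2.83) in airway nuclei. Intervals of levels are exact Poisson intervals and those of folds are exact too; both cover counting error only. Median UMIs per nucleus in these 4 classes were 12284, 11344, 10043 and 14515.5, and the median mitochondrial share was 8.81% in the airway cluster against 5.20% to 6.17% in the other 3; the part of these in the result was not tested.

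Fatty acid synthesis was divided between the classes more sharply and in another order. Scd1, the desaturase that makes oleate, stood at 74.0, 84.9, 79.1 and 89.8 UMIs per 10000 in libraries A to D in ATII-like nuclei, at 7.29, 6.17, 7.82 and 9.12 in ATI-like and at 6.2, 5.9, 6.59 and 6.64 in transitional-like nuclei. Fasn, the fatty acid synthase, was at 12.7, 14.2, 13.2 and 15.6 in ATII-like, 1.83, 1.44, 2.12 and 2.07 in ATI-like and 0.852, 0.724, 1.16 and 0.993 in transitional-like nuclei. Over ATI-like nuclei, the ATII-like level was 10.5-fold (10.3 to 10.7) for Scd1 and 7.13-fold (6.9 to 7.36) for Fasn, against 1.78-fold (1.74 to 1.82) for the sum of the 7 cholesterol genes and 5.37-fold (5.32 to 5.42) for the sum of 24 fatty acid genes. Between transitional-like and ATI-like nuclei the 2 sums lay on opposite sides of 1: the cholesterol genes were 1.28-fold (1.25 to 1.32) and the fatty acid genes 0.77-fold (0.76 to 0.779). By library the cholesterol fold was 1.45, 1.21, 1.24 and 1.26 and the fatty acid fold 0.748, 0.81, 0.798 and 0.718, so all 4 libraries gave the same directions. The fatty acid sum weighs abundant genes most: over single genes of that list the median fold was 0.982, beside 0.98 for all genes tested and 1.21 for the 7 cholesterol genes.

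**Figure D1:**
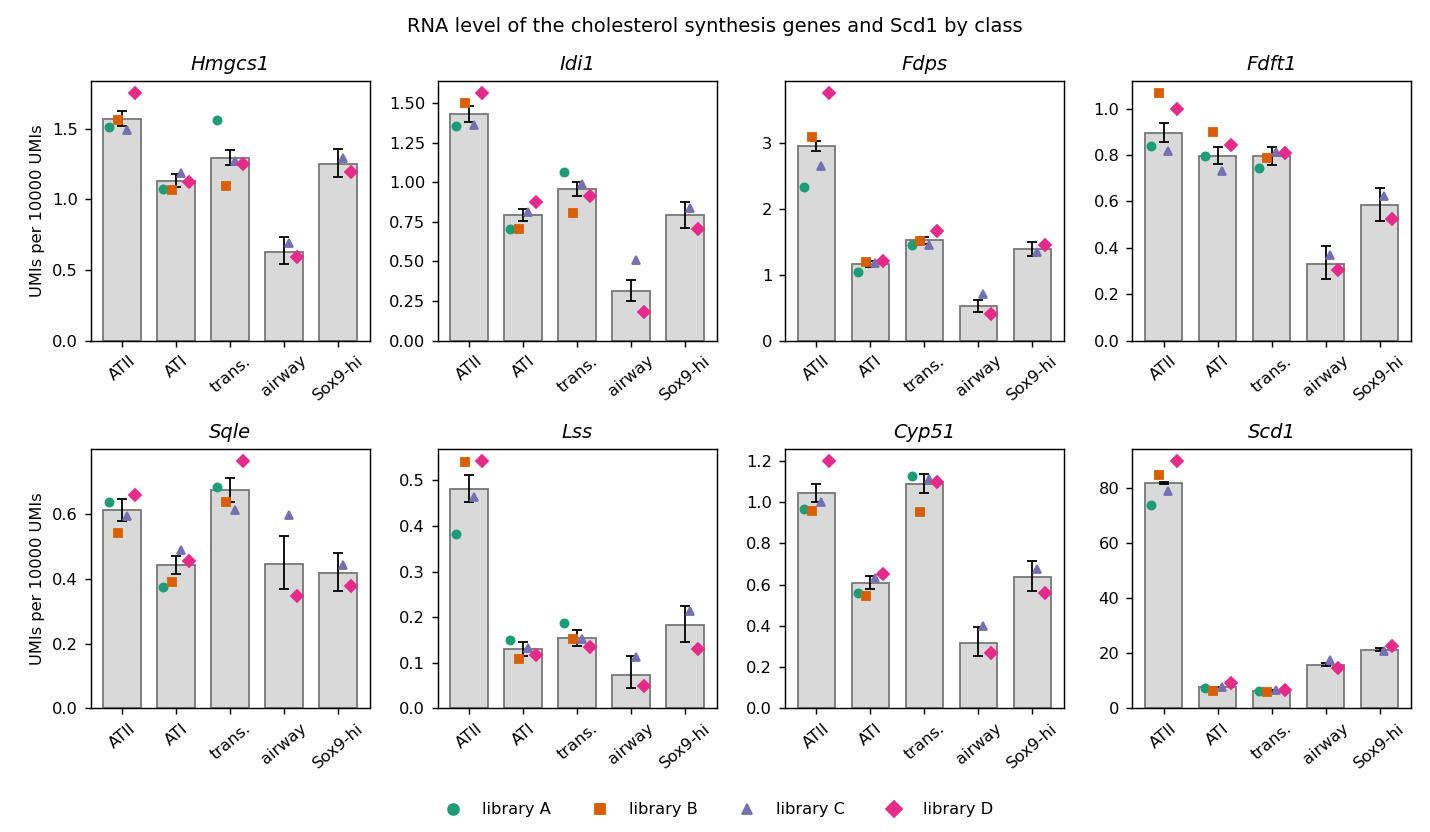
UMIs per 10000 UMIs (y axis, from 0, its own scale in each panel) of the 7 cholesterol synthesis genes and Scd1 in 5 sets of nuclei; bars are all libraries together with exact 95% Poisson intervals, points are libraries A to D (libraries with under 20 nuclei of a set are left out). Scd1 has 1 high class, ATII-like nuclei at 81.9, whereas Cyp51 and Sqle are as high or higher in transitional-like nuclei.

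At the entry of the route, Hmgcs1 (chr13:119690351-119708260, GRCm38.p6 as for the other genes) makes HMG-CoA for mevalonate. Its level was 1.51, 1.56, 1.49 and 1.75 UMIs per 10000 in ATII-like nuclei of libraries A to D, 1.56, 1.1, 1.27 and 1.25 in transitional-like and 1.07, 1.07, 1.19 and 1.12 in ATI-like nuclei. Library A was the highest of the transitional values and within the ATII-like range, while all ATI-like values lay below all ATII-like ones. In the airway cluster Hmgcs1 was at 0.691 in library C and 0.59 in D. ATII-like nuclei were 1.4-fold (1.34 to 1.46) over all other nuclei and transitional-like nuclei 1.15-fold (1.08 to 1.21) over ATI-like ones.

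Idi1 and Fdps make and join the isoprenoid units. Idi1 (chr13:8885606-8892396), an isomerase, was at 1.36, 1.5, 1.36 and 1.56 in ATII-like nuclei of libraries A to D, 1.06, 0.805, 0.987 and 0.916 in transitional-like and 0.705, 0.704, 0.813 and 0.874 in ATI-like nuclei, with every ATII-like value above the others. Fdps (chr3:89093588-89101967), the farnesyl diphosphate synthase, was at 2.34, 3.1, 2.65 and 3.76 in the ATII-like, 1.45, 1.52, 1.45 and 1.67 in the transitional-like and 1.04, 1.2, 1.18 and 1.21 in the ATI-like nuclei. For Fdps the 3 ranges are all apart, in the order ATII, transitional, ATI. Over all other nuclei the ATII-like level was 1.79-fold (1.71 to 1.87) for Idi1 and 2.41-fold (2.33 to 2.49) for Fdps, and the airway level was 0.32-fold (0.255 to 0.397) and 0.31-fold (0.261 to 0.367). The airway folds differed between libraries by more than these intervals cover: Idi1 was at 0.529 in library C and 0.176 in D, and Fdps at 0.441 and 0.203.

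Fdft1 and Sqle make squalene and its epoxide. Fdft1 (chr14:63145150-63181687), squalene synthase, varied least among the 3 alveolar classes, at 0.84, 1.07, 0.818 and 0.996 in the ATII-like, 0.743, 0.785, 0.814 and 0.807 in the transitional-like and 0.795, 0.899, 0.732 and 0.844 in the ATI-like nuclei of libraries A to D. Between transitional-like and ATI-like nuclei the fold for this gene was 0.999-fold (0.933 to 1.07), an interval that holds 1. The RefSeq gene spans of Fdft1 and Ctsb overlap, and the table used gives no strand, so a share of these counts could belong to Ctsb. Sqle (chr15:59315092-59331193), the epoxidase, was at 0.684, 0.636, 0.612 and 0.762 in transitional-like, 0.635, 0.54, 0.592 and 0.659 in ATII-like and 0.373, 0.389, 0.489 and 0.453 in ATI-like nuclei. The transitional-like and ATII-like ranges overlap. Among the named classes, transitional-like nuclei were highest for Sqle within each library. Pooled, they were 1.1-fold (1.02 to 1.19) over ATII-like ones and 1.52-fold (1.4 to 1.65) over ATI-like ones. In libraries A to D the first fold was 1.08, 1.18, 1.03 and 1.16 and the other 1.83, 1.64, 1.25 and 1.68.

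Lss and Cyp51 act on the ring. Lss (chr10:76531565-76557139), which closes it to lanosterol, was at 0.382, 0.54, 0.464 and 0.542 in ATII-like nuclei of libraries A to D, 0.188, 0.153, 0.153 and 0.136 in transitional-like and 0.15, 0.108, 0.133 and 0.117 in ATI-like nuclei, and every ATII-like value was above all the others. Lss was the member with the highest ATII-like fold, 3.5-fold (3.19 to 3.82) over all other nuclei (2.35, 3.92, 3.34 and 4.41 in libraries A to D), and its RefSeq span overlaps 4930483K19Rik. Cyp51 (chr5:4080674-4104697), which removes a methyl group from lanosterol, was at 0.969, 0.956, 1.0 and 1.2 in the ATII-like, 1.12, 0.954, 1.11 and 1.1 in the transitional-like and 0.559, 0.545, 0.63 and 0.652 in the ATI-like nuclei. The ATII-like and transitional-like ranges of Cyp51 overlap, and their fold was 1.04-fold (0.982 to 1.11), an interval that holds 1, while transitional-like nuclei were 1.79-fold (1.67 to 1.92) over ATI-like ones. Levels are not compared between genes, since no transcript lengths were used.

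**Figure D2:**
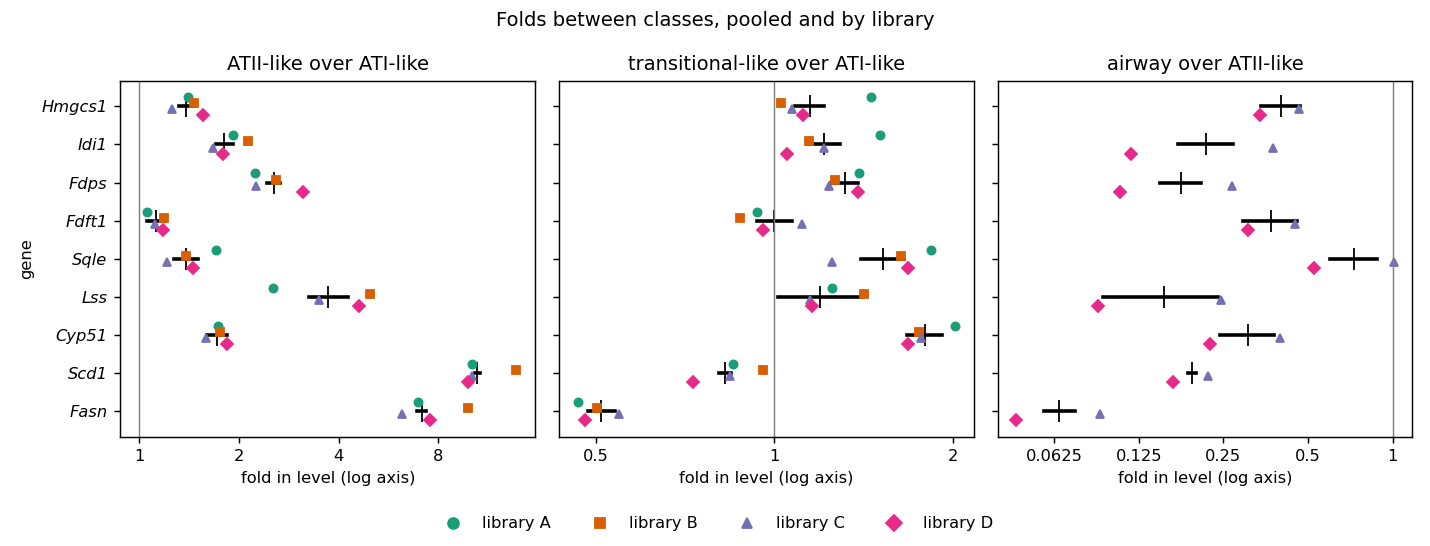
Fold in level (log x axis) between classes for the 7 genes, Scd1 and Fasn (y axis); bars are exact 95% intervals over all libraries, ticks the pooled fold and points libraries A to D. From ATI-like to transitional-like nuclei Cyp51 (1.79) and Sqle (1.52) lie furthest right while Fasn (0.511) and Scd1 (0.826) lie left of 1.

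Counted at 2-fold against all other nuclei, ATII-like nuclei were higher for 2 of the 7 genes, Lss and Fdps, beside 4.81% of the 16500 genes with at least 30 UMIs, and lower for 0, beside 15.8%. ATI-like nuclei were 2-fold higher for 0 (background 2.47%) and lower for 0 (8.75%), and transitional-like nuclei for 0 (5.79%) and 0 (10.4%). The airway cluster was lower for 5 of 7 (7.77%) and higher for 0 (18.8%). At 1.5-fold, 2 were lower in ATI-like nuclei (background 15.1%) and 1 in transitional-like nuclei (19.1%). The exceptions in the airway cluster were Sqle, at 0.852-fold (1.17 in library C and 0.613 in D), and Hmgcs1, at 0.504-fold. In libraries C and D, Lss was at 0.50 and 0.21, Cyp51 at 0.476 and 0.307, and Fdft1 at 0.503 and 0.375. The airway sum was 0.421-fold, 0.553 in library C and 0.316 in library D, and without library D 3 genes were 2-fold lower. Scd1 in the airway cluster was 0.555-fold (0.539 to 0.572) over all other nuclei, above its ATI-like (0.223) and transitional-like (0.186) folds. Fasn differed: pooled, the airway cluster was the lowest of the 4 named classes at 0.908 UMIs per 10000 (0.798 to 1.03). Transitional-like nuclei were next at 0.997 (0.954 to 1.04). These intervals overlap, and the order of the airway cluster and transitional-like nuclei turned between libraries: 1.2 against 1.16 in C and 0.718 against 0.993 in D. The transitional-like sum was 1.07-fold (1.05 to 1.09) over all other nuclei, but it was 0.978 without library A and 0.986 without library B, with classes rebuilt. It was also below 1 under some settings that kept all libraries (closing section). Its side of 1 was thus not stable, and the parts of the libraries and of the regrouping in this were not tested.

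Medians over the rest of the synthesis route, each class against all other nuclei, were 1.73-fold for ATII-like, 0.866 for transitional-like, 0.746 for ATI-like and 0.477 for airway nuclei. Of these 16 other synthesis genes, 8 were at least 2-fold higher in ATII-like nuclei, beside 4.81% of all genes, and 0 lower, beside 15.8%. The ATII-like median over all genes tested was 0.887. Pmvk (3.29-fold) and Mvd (2.6) act on phosphorylated mevalonate, Acat2 (2.94) joins acetyl-CoA units and Dhcr7 (2.91) makes cholesterol in the last step. Ebp (0.524) and Hsd17b7 (0.542), both late steps, were the lowest in ATII-like nuclei, and Hsd17b7 was 2.78-fold (2.54 to 3.05) in transitional-like nuclei. In the airway cluster 8 of these 16 were at least 2-fold lower, beside 7.77% of all genes, and 0 higher, beside 18.8%.

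Of 10 genes that regulate sterol levels (median 1.03-fold), 0 were at least 2-fold lower in ATII-like nuclei, beside 15.8% of all genes, and 3 higher, beside 4.81%. They were Srebf1 (3.01-fold), which encodes SREBP1, Insig1 (2.69), which holds SCAP in the endoplasmic reticulum, and Nr1h3 (2.0), which encodes the oxysterol receptor LXR alpha. Srebf2, which encodes SREBP2, was at 1.34, and the lowest were Insig2 (0.697) and Mylip (0.894), an LXR target that degrades lipoprotein receptors. Of 17 uptake and transport genes tested, 4 were higher, beside 4.81% of all genes, and 3 lower, beside 15.8%, a share close to that of all genes (median 0.976-fold). Soat1, which esterifies cholesterol, was at 4.3-fold, Vldlr, a lipoprotein receptor, at 2.76 and Npc2, which carries cholesterol out of lysosomes, at 2.53, whereas the receptor Lrp8 was at 0.459. The exporter Abcg1 had 2 UMIs in ATII-like and 104 in all other nuclei, a ratio of 0.0603 with a counting interval of 0.0072 to 0.223. Lrp8 was 4.37-fold (3.53 to 5.42) in transitional-like nuclei.

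Of the 24 fatty acid genes (median 2.66-fold), 14 were at least 2-fold higher in ATII-like nuclei, beside 4.81% of all genes, and 2 lower, beside 15.8%. The highest were Acacb (11.5-fold), an acetyl-CoA carboxylase, the elongase Elovl1 (8.28), Scd1 (7.44) and the fatty acid binding protein gene Fabp5 (6.47), with Fasn at 6.15. The lowest were Elovl6 (0.355) and Thrsp (0.424). In transitional-like nuclei the medians were 0.536-fold for this list, 0.961 for all 23 synthesis genes of the cholesterol route and 0.978 for all genes.

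The clusters inside each class also differed in cholesterol genes, and in 2 of the 3 classes without a like difference in fatty acid genes. Within transitional-like nuclei the sum of the 7 was 7.3 UMIs per 10000 in cluster 2 and 4.55 in cluster 5, which is 1.6-fold (1.54 to 1.67), and 2.13, 1.75, 1.47 and 1.51 in libraries A to D. Cyp51 was 2.27-fold (2.02 to 2.56), Hmgcs1 1.92-fold, Sqle 1.64, Idi1 1.53, Lss 1.41, Fdps 1.34 and Fdft1 1.23, all above 1. The 24 fatty acid genes together were 1.13-fold (1.1 to 1.15), and Fasn was at 0.844. Cluster 5 had Gdf15, Hspa1a and Pmaip1 among its leading genes, which belong to stress responses, and its median depth was 9910 UMIs against 11979 in cluster 2; the part of these in the result was not tested. Of all 23 synthesis genes, 14 were at least 1.5-fold higher in cluster 2, beside 9.17% of all 12870 genes tested, and 0 at least 1.5-fold lower, beside 16.3%. At 2-fold, 1 of the 7 was higher, beside 3.12%, and 0 lower, beside 8.35%; by library, 4, 2, 1 and 1 were higher.

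Within ATI-like nuclei, cluster 1 was above cluster 3 for the sum of the 7 at 5.89 against 4.17 UMIs per 10000, or 1.41-fold (1.36 to 1.47), and 1.39, 1.74, 1.33 and 1.4 in libraries A to D. Idi1 (1.75-fold), Lss (1.67) and Hmgcs1 (1.59) were highest, Fdft1 was at 1.12, and at 2-fold 0 of 7 were called, beside 3.98% of genes higher and 4.27% lower. By library, 0, 4, 0 and 0 were 2-fold higher in A to D, so library B stood apart. The fatty acid sum was 1.01-fold (0.997 to 1.03) and Scd1 went the other way at 0.724-fold. Within ATII-like nuclei both programmes were higher in cluster 9 than in cluster 0. There the 7 genes summed to 12.9 against 8.2, or 1.58-fold (1.52 to 1.63), and the fatty acid genes were 1.64-fold (1.62 to 1.65); 0 of the 7 reached 2-fold, beside 1.88% of genes higher and 5.26% lower, and by library 2, 2, 0 and 0 did. Cluster 9, the smaller ATII-like cluster with 228 nuclei, had Lrg1, Lyz2, Chil1, Fabp5 and Lcn2 as its leading genes.

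**Figure D3:**
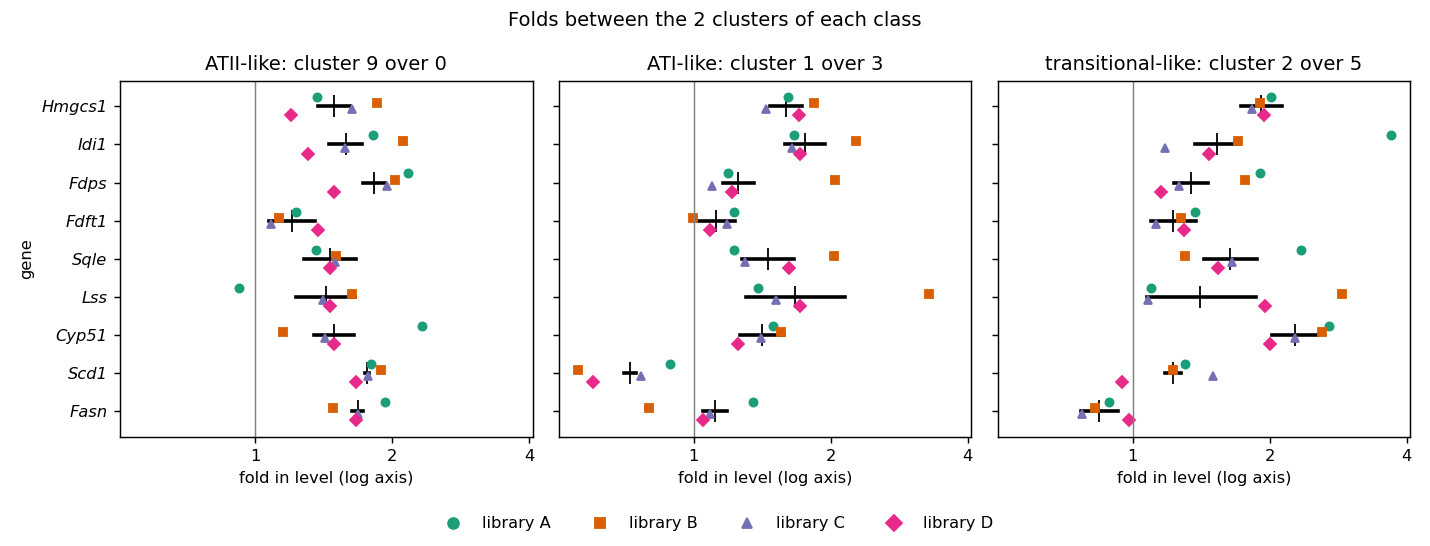
Fold in level (log x axis) between the 2 clusters of each alveolar class for the 7 genes, Scd1 and Fasn (y axis); bars are exact 95% intervals over all libraries, ticks the pooled fold and points libraries A to D. All 7 genes lie right of 1 in each panel when libraries are pooled, while Scd1 is at 1.76, 0.724 and 1.23.

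Single nuclei of 1 class carried these transcripts together. Each alveolar class pools clusters that differed in these genes, so a split of a class can hold part of that difference. Each nucleus was thinned at random to 5000 UMIs (shallower nuclei were left out). Nuclei of a class with a UMI of 1 member in that draw were compared with those without. The thinned counts served only to sort the nuclei at equal depth, and the levels below come from their full counts. In ATI-like nuclei, the other 6 genes together were at 6.17 UMIs per 10000 in the 632 nuclei with an Hmgcs1 UMI and 2.68 in the 1122 without, or 2.3-fold (2.21 to 2.41), and 1.95, 2.95, 2.19 and 2.52 in libraries A to D. In transitional-like nuclei the same split gave 2.32-fold (2.23 to 2.42), and 2.93, 1.86, 2.15 and 2.45 by library. In ATII-like nuclei it gave 1.63-fold (1.57 to 1.68), and 1.65, 1.47, 1.55 and 1.75. Every library of each class was above 1. Before thinning, ATI-like nuclei with an Hmgcs1 UMI had a median of 11257.5 UMIs and those without 10572.5.

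Splitting by each of the 7 genes in turn gave 1.94 to 2.68-fold for the other 6 in ATI-like nuclei, 2.1 to 2.8 in transitional-like and 1.53 to 2.19 in ATII-like nuclei. In each of these 21 splits all 6 other genes were higher in the nuclei with a UMI. The fatty acid sum was at 0.99 to 1.22-fold in ATI-like and 1.02 to 1.09 in transitional-like nuclei. In ATII-like nuclei it reached higher, at 1.12 to 1.6, so the 2 ranges overlap there, though in each of the 21 splits it was below the fold of the other 6 genes. The median over 6206 to 6564 single genes with enough UMIs was 0.965 to 1.0-fold. In the airway cluster, with 24 to 37 nuclei on the side with a UMI for 5 of the genes, the other 6 were 1.61- to 1.9-fold, with all 6 higher in 3 of the 5 splits. Splits share nuclei and members and are not independent of each other.

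**Figure D4:**
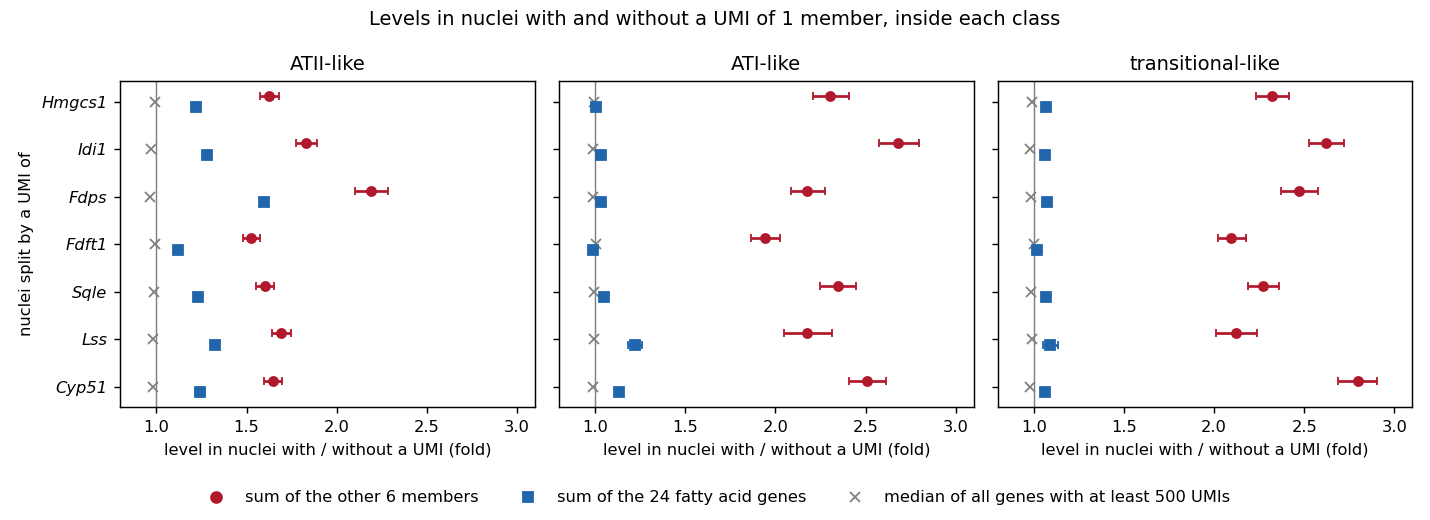
Level in nuclei with a UMI of the named gene (y axis) divided by the level in nuclei of the same class without one (x axis, fold). Nuclei were sorted by counts thinned to 5000 UMIs, and levels are from full counts. Circles are the other 6 cholesterol genes summed, squares the 24 fatty acid genes summed, crosses the median of single genes, and bars exact 95% intervals. In ATI-like and transitional-like nuclei the circles lie at 1.94 to 2.68 and 2.1 to 2.8 and the squares near 1.

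Many of the genes that led the Hmgcs1 split belonged to the same route. Among the 20 genes with the highest fold, ATI-like nuclei had 5 of 5 members with enough UMIs, 4 of 10 other synthesis genes and 0 fatty acid genes, and transitional-like nuclei had 5 of 5, 6 of 10 and 0. ATII-like nuclei had 6 of 6 members, 6 of 12 other synthesis genes and 1 fatty acid gene. That gene, Fabp5, led the ATII-like list at 2.28-fold, and Lyz2 (1.77), Lrg1 (1.59), Chil1 (1.56) and Lcn2 (1.52), the leading genes of cluster 9, were in it as well. These genes were picked after their values were seen.

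Across 27 units, each 1 class or cluster of 1 library with at least 50 nuclei, the levels of the 7 genes also ran together. Pearson's r between pairs of members was 0.52 (Sqle and Fdft1) to 0.91 (Idi1 and Fdps), that of a member with Scd1 0.35 to 0.69 and with Fasn 0.17 to 0.71. Units share libraries, depth and nuclei types, so these values are descriptions. Out of 10425 genes, those most like the sum of the 7 included Cndp2, a dipeptidase (0.92), Ifi30, a lysosomal thiol reductase (0.89), Stard4, a sterol carrier (0.89), Tmem97, a sterol-responsive membrane protein (0.88), and the synthesis genes Mvd (0.86), Nsdhl (0.86) and Msmo1 (0.86). Of the 16 other synthesis genes, 9 were among the 100 most alike. The median r was 0.78 for those 16, 0.46 for the fatty acid genes and 0.01 for all genes.

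Over all classes Sox9-high nuclei had slightly less of the cholesterol genes than nuclei without a Sox9 UMI. The same direction held within the unnamed cluster 6, but not inside ATII-like or transitional-like nuclei. The sum of the 7 was 5.25 UMIs per 10000 in the 312 Sox9-high nuclei and 6.2 in the 5524 without a Sox9 UMI, or 0.847-fold (0.813 to 0.882), with 0.876 in library C and 0.76 in D. By gene the fold was 1.0 for Hmgcs1, 0.841 for Idi1, 0.839 for Fdps, 0.746 for Fdft1, 0.796 for Sqle, 0.811 for Lss and 0.768 for Cyp51. At 2-fold 0 of the 7 were higher, beside 7.05% of genes, and 0 lower, beside 4.85%. The fatty acid sum was lower by a like amount in the same comparison, 0.833-fold (0.823 to 0.844), with 0.796 in library C and 0.776 in D; Scd1 was at 0.765 and Fasn at 1.03. Within ATII-like nuclei, 33 of them Sox9-high, the sum was 1.13-fold (1.05 to 1.23). Within transitional-like nuclei, 35 of them Sox9-high, it was 1.05-fold (0.936 to 1.17), and 1.17 (1.03 to 1.34) in library C. Within the unnamed cluster 6, with 67, it was 0.761-fold (0.658 to 0.878), and 0.689 in library C and 0.738 in D. The fatty acid sum was 0.987-fold (0.968 to 1.01) within ATII-like nuclei and 0.9-fold (0.869 to 0.932) within cluster 6. Within transitional-like nuclei it was 1.08-fold (1.02 to 1.15), but 0.894 (0.824 to 0.967) in library C.

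The Sox9-high nuclei were unevenly spread: 47.4% were in cluster 8, 21.5% in cluster 6, 11.2% in transitional-like and 10.6% in ATII-like nuclei, and their median depth was 14368 UMIs against 10621. Cluster 8, where Sox9 was highest (8.59 UMIs per 10000), had 4.82 for the sum of the 7, 0.777-fold (0.741 to 0.816) over all other nuclei, while Scd1 there was 0.185-fold. In it 13 of 21 transitional markers were supported, but 0 were among its top 50 genes. Cluster 8 thus kept no name and is outside the transitional-like class. A share of Sox9-high nuclei in a class and a level per nucleus cannot be told apart in the pooled Sox9-high value. Because no library has a label, none of this compares the Sox9-Cre and Cre groups.

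Accessibility of the 7 genes differed little between the classes that differed in RNA. ATAC counts in peaks over each gene and 2 kb on either side summed to 5.19 per 10000 counts in ATII-like nuclei, 4.66 in transitional-like, 4.99 in ATI-like and 4.68 in airway nuclei. Over all other nuclei the sum was 1.09-fold (1.06 to 1.11) in ATII-like nuclei (1.07 to 1.12 across libraries), 1.03-fold (1.01 to 1.06) in ATI-like, 0.946-fold (0.923 to 0.97) in transitional-like and 0.96-fold (0.899 to 1.02) in airway nuclei. By gene in ATII-like nuclei the fold ran from 0.999 for Fdft1 to 1.15 for Cyp51, with Lss at 1.06 and Fdps at 1.15. At 1.25-fold 0 of the 7 were higher in ATII-like nuclei, beside 6.64% of 19441 genes, and 0 lower, beside 10.4%. Scd1 was 1.62-fold (1.51 to 1.74), with 1.44 to 2.2 across libraries, and Fasn 1.14-fold (1.07 to 1.2). Over single genes the median was alike for both lists, 1.13 for the 7 and 1.13 for the 24 fatty acid genes, beside 1.03 for all genes. Of those 24, 5 were at least 1.25-fold higher and 0 lower, beside the same shares of all genes. Cluster 9, at 1.58-fold in RNA over cluster 0, was at 0.91-fold in ATAC (0.886 to 1.14 across libraries), and cluster 2 over cluster 5, at 1.6-fold in RNA, was at 0.984 (0.794 to 1.03). Cluster 1 over cluster 3, at 1.41-fold in RNA, was at 1.07-fold (1.03 to 1.11) in ATAC and above 1 in all 4 libraries (1.04 to 1.1).

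Sqle, Fdps and Cyp51 had 1 peak each, and a peak at the gene's start held most counts over Hmgcs1, Idi1 and Lss. For Hmgcs1 the peak chr13:119689827-119690723, which holds the printed promoter, had 5208 counts and was 1.07-fold in ATII-like nuclei. For Lss the peak over the start, chr10:76531036-76531969 (4578 counts), was 0.995-fold in ATII-like and 1.1 in ATI-like nuclei. A second peak inside the Lss span, chr10:76537276-76538314 (1198 counts), lay 5671 bp past the start site used for the printed stretch. This second peak was 1.34-fold (1.18 to 1.53) in ATII-like, 0.709 (0.614 to 0.818) in ATI-like and 1.8 (1.45 to 2.22) in cluster 8 nuclei. It was singled out after its values were seen, whether it is exonic or intronic was not read because the gene table gives gene ends only, and in cluster 8 Lss RNA was 0.447-fold. In cluster 8, 2 of the 7, Idi1 (0.776) and Fdft1 (0.792), were at least 1.25-fold lower, beside 18.7% of genes, and 0 higher, beside 13.4%. Counts over Fdft1 include peaks where its span overlaps Ctsb, and windows of Hmgcs1, Sqle, Fdps and Cyp51 reach Nim1k, Washc5, Rusc1 and Akap9.

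**Figure D5:**
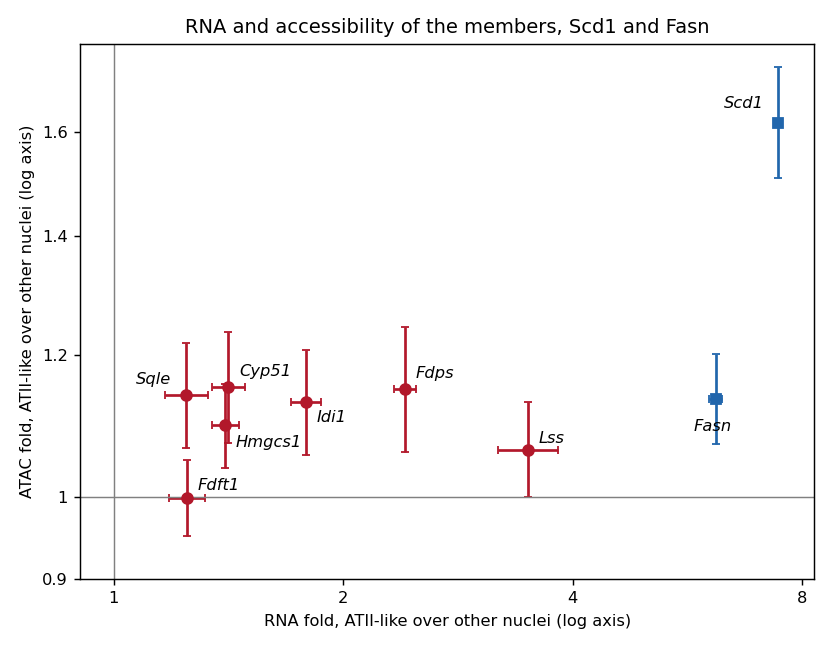
RNA fold (log x axis) and ATAC fold (log y axis) of ATII-like over all other nuclei, pooled over libraries, for the 7 cholesterol genes (circles) and Scd1 and Fasn (squares), with exact 95% intervals. The 7 genes spread from 1.25 to 3.5 in RNA and lie between 0.999 and 1.15 in ATAC, below Scd1 at 1.62.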

How the data were processed

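The deposited matrices hold raw counts by the authors: UMIs of 32285 genes and ATAC counts of 116068 peaks in the same 7224 nuclei. The submitters' processing notes name Cell Ranger 6.0.1, Seurat 4.3.0, Signac 1.10.0, GRCm38 and mm10, and no peak caller. Nuclei needed 500 UMIs, 300 genes and under 20% mitochondrial counts (25 left out). Scrublet in scanpy 1.11.5 marked 15 nuclei (0.208%), which were removed; a caller that marks so few has not worked, and doublets can remain. Clusters came from 2000 variable genes, 30 principal components, 15 neighbours and Leiden resolution 0.8. A name needed at least 3 markers and 30% of a list to be 1.5-fold higher and seen in 5% of nuclei, with 3 in the top 50 genes. Counts under 3 were set to 3 for calls and list medians, and RNA and ATAC folds needed 30 and 100 counts. The members and gene lists were chosen with earlier results of these data known. Genes named from each list have its 4 highest and 2 lowest ATII-like folds, or are the 10 most like the sum of the 7; some that qualify are not reported here. Python 3.11.15, scipy 1.17.1 and numpy 2.4.6 were used. The fold and interval calculations were checked on simulated Poisson counts, which hold counting error only and no variation between nuclei or libraries.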

Additional observations from a re-analysis of the deposited data

How the results depend on the processing

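Nuclei are 1 pooled sample, so every fold describes these libraries, and intervals cover counting error only. The planned tests of Sox9-Cre against Cre (edgeR, and as alternatives DESeq2 size factors, no filter on low counts, a replicate block and each replicate left out) were not run because no label ties a nucleus to a sample. No paired analysis was possible because the pooled columns carry no replicate number. Depth limits Lss most, with fewest UMIs, and the airway cluster, with 170 nuclei. Score-based classes had 559 nuclei within 0.1 SD of the cut. Across the settings, folds of summed values stayed on their side of 1 in 120 of 127 cases and those of single members in 288 of 308, and 0 and 5 moved by over 1.5 times. The cause of the changes was not tested.

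For some settings only part of the classes is given here. With all variable genes except Sox9 in the clustering, the sum of the 7 was 1.8 (ATII-like) and 0.742 (ATI-like) and the fatty acid sum was 5.05 (ATII-like) and 0.313 (transitional-like). At Leiden resolution 0.4, the sum of the 7 was 1.69 (ATII-like), 0.742 (ATI-like) and 0.958 (transitional-like) and the fatty acid sum was 4.89 (ATII-like) and 0.383 (ATI-like). With at least 1000 UMIs per nucleus, the sum of the 7 was 0.808 (ATI-like) and 1.04 (transitional-like) and the fatty acid sum was 4.84 (ATII-like), 0.401 (ATI-like) and 0.311 (transitional-like). Without the 5% of nuclei with the highest doublet scores, the sum of the 7 was 1.79 (ATII-like), 0.879 (ATI-like) and 0.387 (airway) and the fatty acid sum was 5.28 (ATII-like), 0.451 (ATI-like), 0.31 (transitional-like) and 0.534 (airway). With classes from marker scores, the sum of the 7 was 1.62 (ATII-like), 0.851 (ATI-like), 0.992 (transitional-like) and 0.47 (airway) and the fatty acid sum was 4.87 (ATII-like), 0.381 (ATI-like), 0.314 (transitional-like) and 0.578 (airway). With nuclei thinned to 1000 UMIs, the sum of the 7 was 0.824 (ATI-like) and 1.04 (transitional-like) and the fatty acid sum was 0.403 (ATI-like), 0.316 (transitional-like) and 0.628 (airway). Without clusters 7 and 11, the shallowest (chosen after seeing the data), the sum of the 7 was 1.68 (ATII-like), 0.759 (ATI-like) and 1.05 (transitional-like) and the fatty acid sum was 4.77 (ATII-like), 0.385 (ATI-like) and 0.294 (transitional-like). Leaving out 1 library at a time, with clusters rebuilt, the sum of the 7 ranged from 1.62 to 1.85 (ATII-like), 0.796 to 0.889 (ATI-like), 0.978 to 1.05 (transitional-like), 0.334 to 0.506 (airway), and the fatty acid sum from 4.7 to 5.44 (ATII-like), 0.391 to 0.427 (ATI-like), 0.296 to 0.333 (transitional-like), 0.552 to 0.706 (airway). The number of members at least 2-fold lower in the airway cluster ranged from 3 to 6, with the lowest without library D. At 1.5-fold, 2 members were lower in ATI-like and 1 in transitional-like nuclei, against 0 at 2-fold. The Sox9-high fold of the sum was 0.926 from 3 Sox9 UMIs on, 0.762 from 5 per 10000, 0.777 for the cluster highest in Sox9, 1.13 within ATII-like and 1.05 within transitional-like nuclei, 0.76 in library D alone, and 0.797 to 0.891 leaving out 1 library at a time. With peaks scored 0 or 1 per nucleus the ATII-like accessibility of the sum was 1.06, and leaving out 1 library at a time the airway value ranged from 0.913 to 1.04.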

Other observations

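The clusters without a name also differed in the 7 genes. Cluster 7 (298 nuclei) had the lowest sum, 1.99 (95% interval 1.8 to 2.19) UMIs per 10000, with Fdps at 0.21 and Idi1 at 0.224; its median depth was 6043.5 UMIs and its median mitochondrial share 8.75%, and the part of these in the result was not tested. Cluster 4 (640 nuclei), with Sftpa1 and S100g among its leading genes and 4 of 17 ATII markers supported, had a sum of 5.19 (95% interval 5.05 to 5.34), near the ATI-like level, while Scd1 was at 22.4 and Fasn at 4.0, between the ATII-like and ATI-like levels. Cluster 6 (376 nuclei) had a low cholesterol sum, 4.13 (95% interval 3.95 to 4.32), together with Fasn at 7.0 and Scd1 at 27.3, both several times the ATI-like levels. Cluster 12 (92 nuclei, 84 of them in library C), led by Bst1, Mgarp and Loxl2, had 5.12 (95% interval 4.7 to 5.56), and cluster 13 (28 nuclei), led by the interferon genes Rsad2 and Isg15, had 4.49 (95% interval 3.83 to 5.24).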
